A study of Mus musculus with 32 samples.

Results

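Mouse histone genes that are switched on with DNA replication lie in clusters, and their symbols begin with Hist1h, Hist2h, Hist3h or Hist4h. The genes described here are all those with such a symbol in both count tables, 68 of 23284 genes, and 60 of them had 10 or more counts in at least 3 of the 32 libraries. 44 of the 60 reached 10 counts in all 32 libraries. A count is a fragment in lesions and a single mate of a read pair in culture, so 10 counts can stand for fewer fragments in culture. The 8 below that limit were Hist1h2aa, Hist1h2ao, Hist1h2ap, Hist1h2ba, Hist1h2bq, Hist1h2br, Hist1h4m and Hist2h2aa2, and 4 of these had 0 counts everywhere. Those 4 were Hist1h2ap, Hist1h2bq, Hist1h2br and Hist2h2aa2, and 100% of their exon bases also belong to another gene of the annotation. Their 0 counts therefore do not tell whether they were expressed. The gene just inside the limit was Hist1h1t, the testis linker histone, with 10 or more counts in 5 libraries, and the gene just outside it was Hist1h4m, with none.

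The study sequenced RNA from brachiocephalic artery lesions and from cultured cells with and without Oct4 (gene Pou5f1), a pluripotency transcription factor. The lesions came from C57BL/6 mice fed a Western diet for 18 weeks, with 4 libraries labelled Oct4 -/- (KO) and 4 labelled wild type (WT), and they hold several cell types. The 24 other libraries are of primary smooth muscle cells, 3 for each of 8 groups. KO cells and WT cells were each given POVPC, an oxidised phospholipid found in atherosclerotic lesions, or vehicle, under hypoxia (1% O2) or under normoxia. The labels name no Cre driver and no promoter, and they do not say whether the 3 libraries of a group came from separate cultures or animals. Genotype therefore cannot be told apart from the culture that carried it, and p-values measure only the spread between these libraries. Total counts were 6526099 to 11137414 in lesions and 8063121 to 30231799 in culture. Pou5f1 had 0 counts in 7 of 8 lesion libraries and in 21 of 24 culture libraries, with at most 3 and 2 counts in the others, so its level cannot check the genotype labels. Smooth muscle markers (Acta2, Myh11, Cnn1, Tagln, Lmod1, Myocd) were all detected in every culture group, but their summed level was 22.3 to 331.7 CPM (counts scaled to library size), against 3628.0 to 7964.6 CPM in lesions, which were counted and scaled separately.

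Core histones H2A, H2B, H3 and H4 form the nucleosome around which DNA is wound, and H1, the linker histone, binds where DNA enters and leaves it. Cells make most of these proteins in S phase, when new DNA has to be packed. The mRNAs of the clustered genes have no introns as a rule and normally end in a conserved stem-loop in place of a poly(A) tail. SLBP binds the stem-loop, U7 snRNP guides the cut behind it, and NPAT drives transcription of the clusters. In human cells some clustered genes, HIST1H2BC among them, are also made as polyadenylated mRNA outside S phase. A library built from RNA with a poly(A) tail therefore reads these genes differently from one built from all RNA, and the RNA selection used here is not given in the sources used here.

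The 60 described genes comprised 6 of 6 H1 genes, 14 of 18 H2A genes, 16 of 19 H2B genes, 12 of 12 H3 genes and 12 of 13 H4 genes. On mm9, the build of the counts, the Hist1 cluster (54 genes) spans chr13:21807632-24026720, Hist2 (10 genes) spans chr3:96023839-96074115, Hist3 (3 genes) spans chr11:58762413-58770176, and Hist4h4 lies alone at chr6:136750074-136752952. The deposited gene models were at most 700 bases of exon for 44 of the 60 genes. Members are close copies of each other, so reads may be shared. In 25 of the 60, over 50% of the 50-base windows of the GENCODE M21 transcript also occur in transcripts of other genes, and in 5 none do. 10 of the 68 overlap another gene of the annotation, including Hist2h2aa1, 68.0% of whose exon bases are also Hist2h2aa2.

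The stem-loop is the shared 3′ mark of the family, and its letters are shown for the genes that the results below turn on. It was found in the GENCODE M21 transcripts (GRCm38) of 46 of the 68 genes, 42 of them described, and 26 of the 46 have the letters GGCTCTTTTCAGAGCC. Transcripts without a match may be annotated too short to hold it. That of Hist1h4k has 312 bases, whereas the stem-loop of Hist1h4c begins at base 351. No match therefore does not show that a gene lacks the stem-loop. Capitals mark the 16-base stem-loop, and each sequence is written 5′ to 3′ as DNA with its flanks.
Hist1h3c: aaaaaGGCTCTTTTAAGAGCCacctaa
Hist1h3b: ccaaaGGCTCTTTTCAGAGCCacccac
Hist1h3g: ttaaaGGCTCTTCTTAGAGCCacccat
Hist2h3c1: acaaaGGCTCTTTTCAGAGCCaccaca
Hist2h3c2: acaaaGGCTCTTTTCAGAGCCaccaca
Hist3h2a: ccaaaGGCTCTTTTCAGAGCCacccac
Hist1h1c: caaaaGGCTCTTTTCAGAGCCaccact
Hist1h4c: caaaaGGCCCTTTTCAGGGCCacccac
Hist1h4d: ccaaaGGCCCTTTTCAGGGCCactacc
Hist2h4: ctaacGGCCCTTTTTAGGGCCaaccac
The stems of the 3 H4 genes shown differ from those of the other classes in both arms, and the loops of Hist1h3c, Hist1h3g and Hist2h4 differ from the most frequent one. Where the annotated transcript ends differs more than the stem-loop itself. It stops 74 bases past the stem-loop in Hist1h3c, 51 bases past it in Hist1h3b and 47 bases past it in Hist1h3g, but runs on for 1167 bases in Hist2h3c1, 377 in Hist2h3c2, 1643 in Hist3h2a, 840 in Hist1h1c, 454 in Hist1h4c, 770 in Hist1h4d and 1257 in Hist2h4. Over the described genes, 19 end within 100 bases of the stem-loop and 18 run more than 200 bases past it.

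Promoters are shown for 4 genes from 3 classes. Hist1h3c and Hist2h3c1 are H3 genes that moved in opposite directions under hypoxia, Hist1h2ab moved with genotype, and Hist1h4d had the highest mean level of the family per kilobase of exon. Each is 300 bases from RefSeq on GRCm38.p6, 250 before and 50 after the gene's start, written along the gene's strand, with the CCAAT box, the TATAAA letters of the TATA box, the octamer ATTTGCAT and the H4 promoter letters GGTCC in capitals on either strand.
Hist1h3c, chr13:23745472-23745771, minus strand: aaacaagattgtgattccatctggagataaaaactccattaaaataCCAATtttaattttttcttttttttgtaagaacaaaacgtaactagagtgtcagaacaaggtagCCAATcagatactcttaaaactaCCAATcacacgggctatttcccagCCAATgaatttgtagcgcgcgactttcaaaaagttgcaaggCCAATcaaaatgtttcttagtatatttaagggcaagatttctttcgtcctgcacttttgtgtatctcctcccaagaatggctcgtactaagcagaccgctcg
Hist2h3c1, chr3:96246435-96246734, plus strand: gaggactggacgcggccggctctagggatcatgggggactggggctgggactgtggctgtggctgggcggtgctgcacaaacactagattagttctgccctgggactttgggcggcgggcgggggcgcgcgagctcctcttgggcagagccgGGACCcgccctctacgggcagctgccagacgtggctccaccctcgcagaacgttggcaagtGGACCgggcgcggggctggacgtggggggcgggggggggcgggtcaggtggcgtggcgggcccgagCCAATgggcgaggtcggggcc
Hist1h2ab, chr13:23750838-23751137, plus strand: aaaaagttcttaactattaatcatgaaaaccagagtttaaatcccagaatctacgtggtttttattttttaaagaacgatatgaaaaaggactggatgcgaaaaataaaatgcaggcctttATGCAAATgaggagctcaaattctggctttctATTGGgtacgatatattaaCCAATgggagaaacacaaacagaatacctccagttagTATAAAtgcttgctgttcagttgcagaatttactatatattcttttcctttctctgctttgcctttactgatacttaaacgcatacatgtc
Hist1h4d, chr13:23581318-23581617, plus strand: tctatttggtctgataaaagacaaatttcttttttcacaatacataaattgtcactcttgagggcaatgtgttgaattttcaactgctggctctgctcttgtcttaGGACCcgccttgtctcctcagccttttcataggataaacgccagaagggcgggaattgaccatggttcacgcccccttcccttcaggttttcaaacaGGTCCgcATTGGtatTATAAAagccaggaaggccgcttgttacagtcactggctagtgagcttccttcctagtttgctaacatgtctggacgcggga
Promoter letters of 62 genes matched RefSeq, in 63 windows. CCAAT, the letters bound by NF-Y, was in 85.7% of the 63 and in 37.4% of all 32851 promoters of this length, and the gene Hist1h3c holds it 5 times. The octamer ATTTGCAT, bound by POU factors such as OCT1, was in 22.2% against 1.74% of all promoters. All 14 windows with the octamer belonged to H2A genes (38.9% of them) or H2B genes (41.2%), and none to H1, H3 or H4 genes. GGTCC, the core of the letters bound by HiNF-P in H4 promoters, was in 91.7% of H4 promoters and 45.5% of all promoters, whereas CCAAT was in 25% of H4 promoters. The E2F letters TTTCGCGC were in 14.3% against 0.323%. ACGTG, the core of the hypoxia response element, was in 22.2% against 19.6%. These are matches of letters on either strand and not sites shown to be bound. Windows of neighbouring H2A and H2B genes can overlap, so the 63 are not all separate DNA and a stretch can be counted more than once. Those of Hist1h2ad (chr13:23574131-23574430) and Hist1h2bf (chr13:23574158-23574457) overlap and both hold the E2F letters. Those of Hist1h2ae and Hist1h2bg overlap too, and both hold the octamer.

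Levels are given as CPM on an effective library size (trimmed mean of M values, TMM), and divided by exon length where genes are compared with each other. Per kilobase of deposited exon, Hist1h4d had the highest mean of the family over all culture libraries, at 509.7 ± 234.4 CPM per kb (SD over 24), and over all lesions, at 168.8 ± 24.6 CPM per kb (SD over 8). It had the highest group mean in 7 of the 8 culture groups, and in KO cells with vehicle under hypoxia Hist1h2bc, at 349.5 ± 9.81 CPM per kb, was above Hist1h4d, at 303.2 ± 88.4 (SD, n = 3). In CPM not divided by length, Hist1h1c was above Hist1h4d, at 177.7 against 159.0 CPM in culture and 152.1 against 52.7 CPM in lesions. The next in culture were Hist1h4c at 265.8, Hist1h4h at 216.9, Hist1h2bc at 208.3, Hist2h2bb at 169.7, Hist1h4f at 142.1 and Hist1h1c at 113.8 CPM per kb. Hist1h4k, Hist2h4, Hist1h4i, Hist1h3e and Hist1h4a followed between 111.9 and 71.3 CPM per kb. Their SDs over all culture libraries overlap from one gene to the next, since they span 8 groups. 8 of the 12 highest in culture encode H4. The deposited models of Hist1h4d, Hist1h4c, Hist1h4f, Hist1h4k and Hist1h4a have only 312 bases of exon. The part of model length in these values per kilobase was not tested. In lesions Hist1h1c, encoding the linker histone H1.2, came next at 97.4 ± 12.1 CPM per kb, followed by Hist1h4c at 78.4 and Hist1h2bc at 74.2, and 5 of the 12 highest encode H4. 9 genes were among the 12 highest in both tables. The order of the genes differed between the tables in both directions. Hist1h4i ranked 10 in culture and 38 in lesions, where it had 7.32 CPM per kb, and Hist1h1a, encoding H1.1, ranked 47 in culture and 20 in lesions, at 6.35 and 16.8 CPM per kb.

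Between the 8 culture groups the highest group mean was a median of 3.41 times the lowest, and for 9 genes it was over 10 times. 26 genes had their highest mean in WT cells with POVPC under hypoxia and 22 in WT cells with POVPC under normoxia, whereas 19 had their lowest mean in WT cells with vehicle under normoxia. Hist1h4d, for example, had 81.2, 149.3 and 147.2 CPM in KO cells with POVPC under hypoxia, and 160.5, 370.0 and 221.4 CPM in WT cells treated the same way. Replicate 2 of the WT group was the highest of the 6 libraries.

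**Figure D1:**
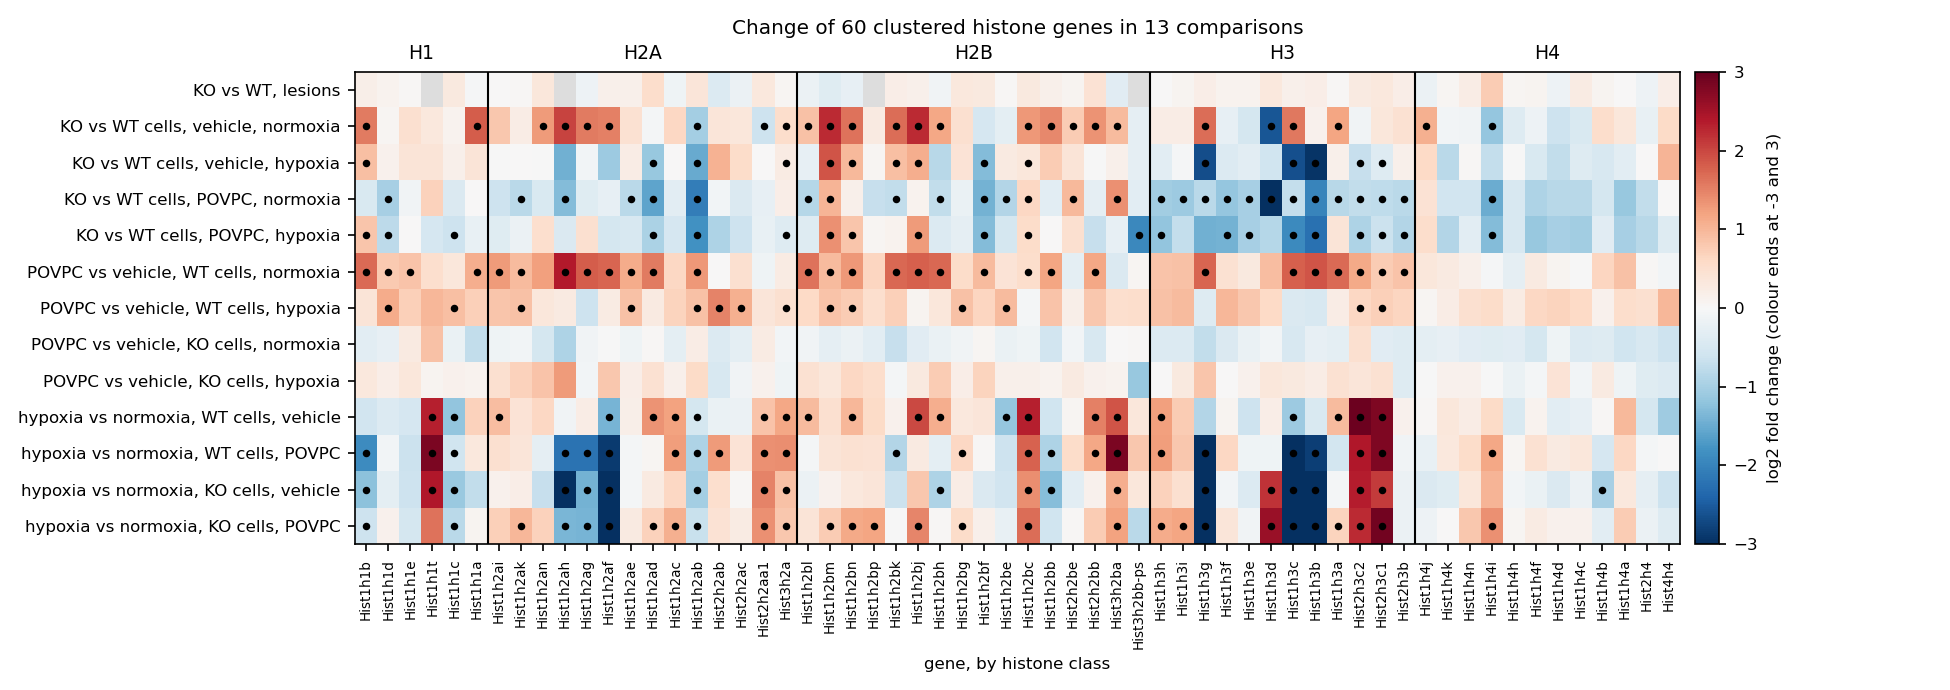
Log2 fold change of the 60 described histone genes (columns, ordered by class) in 13 comparisons (rows), with red for higher and blue for lower in the group named first, colour ending at -3 and 3, grey for genes not tested and a black dot for an adjusted p under 0.05. The lesion row has 0 dots, the row of POVPC against vehicle in WT cells under normoxia has 29 dots, all red, and the 4 hypoxia rows hold dots of both colours.

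The share of counts taken by Rpph1 differed between libraries of one group, and histone levels moved with it. Rpph1, the RNA subunit of RNase P, and Rn45s, the precursor of ribosomal RNA, both lack a poly(A) tail. Rpph1 took 0.588 to 0.765% of counts in lesions and 1.15 to 14.2% in culture, and Rn45s took 1.07 to 2.96% and 1.29 to 11.1%. All 68 genes together took 0.0645 to 0.0881% of counts in lesions and 0.105 to 0.279% in culture, and summed histone levels are also over the 68. Libraries of 1 group could differ widely. In WT cells with vehicle under hypoxia, Rpph1 was 8.23% in replicate 2 and 1.94 and 1.90% in replicates 1 and 3, and the summed histone level was 2358.0 CPM against 1138.8 and 1216.1 CPM. In KO cells with vehicle under normoxia, Rpph1 was 1.15% in replicate 3 and 6.91 and 4.23% in replicates 1 and 2, and the histone level was 1070.9 CPM against 1952.4 and 1818.9 CPM. Rn45s in the same library was 8.02%, against 1.59 and 1.29%. In KO cells with vehicle under hypoxia, Rpph1 was 14.2% in replicate 3 and 3.29 and 7.15% in replicates 1 and 2, and the histone level was 1876.8 CPM against 1371.4 and 1434.5 CPM. Rpph1 in KO cells with POVPC under hypoxia was 1.52% in replicate 1 and 4.78 and 3.59% in replicates 2 and 3, and the histone level was 1271.3 CPM against 1855.7 and 1904.7 CPM. Rn45s in replicate 1 of that group was 8.31%, against 3.75 and 4.56%. In WT cells with POVPC under hypoxia, Rpph1 was 8.08% in replicate 2 and 4.71 and 3.69% in replicates 1 and 3, and the histone level was 3072.9 CPM against 1798.0 and 2264.2 CPM. Depth and alignments to several places in the genome, which the authors did not count, moved with the same libraries. In each of the 8 culture groups the library with the highest Rpph1 share also had the most such alignments per assigned one and the lowest total count, and in 7 of 8 the highest histone level. This ratio ranged between 0.743 and 9.24 over the culture libraries and between 0.825 and 1.04 over the lesions. It was 9.24 in replicate 2 of WT cells with POVPC under hypoxia, which had a total of 8063121 counts, against 5.79 and 1.56 in replicates 1 and 3, with 13663755 and 25878074 counts. In KO cells given vehicle it was 8.07 in replicate 3 under hypoxia, with 11618385 counts, against 1.89 and 2.42, and 0.793 in replicate 3 under normoxia, against 3.88 and 2.84. Its part in the levels of these close copies was not tested.

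**Figure D2:**
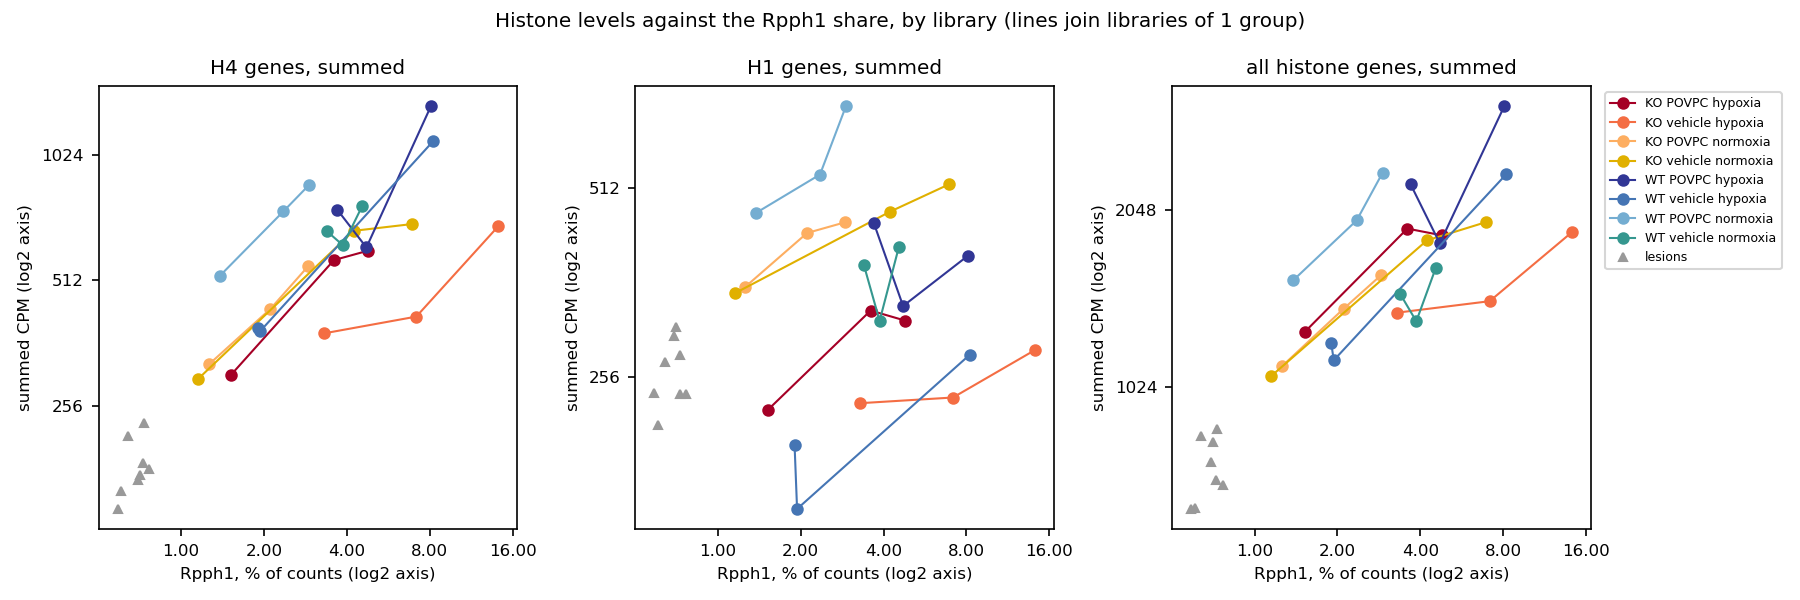
Summed level of the H4 genes, the H1 genes and all 68 histone genes (CPM, log2 axis) against the share of counts taken by Rpph1 (percent, log2 axis), with 1 point per library, lines joining the libraries of 1 culture group and triangles for lesions. In KO cells with vehicle under normoxia the H4 sum was between 296.3 and 697.9 CPM, lowest in the library with 1.15% Rpph1.

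A slope on the log2 share of Rpph1 was fitted within the 8 culture groups for every gene, a test added after the data had been seen. With each doubling of Rpph1, 47 of 60 histone genes were higher and 0 were lower at an adjusted p under 0.05, where 24.8% of all 14496 genes were called, 10.4% higher and 14.4% lower. The median slope was 0.38 (log2 per doubling), against -0.015 over all genes. All 12 H4 genes were higher, with a median slope of 0.61. Hist2h4 had a slope of 0.63 ± 0.038 (SE, adjusted p = 3.92e-13) and Hist1h4h one of 0.54 ± 0.034 (adjusted p = 2.69e-11). Of the other classes, 4 of 6 H1 genes, 10 of 14 H2A genes, 13 of 16 H2B genes and 8 of 12 H3 genes were higher. Hist2h3c1 and Hist2h3c2 were not called, with slopes of -0.11 and -0.03. Genes whose annotated transcript ends within 100 bases of the stem-loop were called in 16 of 19 cases (median 0.41), and those running over 200 bases past it in 14 of 18 (median 0.39). The deposited models that were counted can be shorter than these transcripts. That of Hist1h4d has 312 bases of exon, against 1138 in GENCODE, where the stem-loop begins at base 353. This split therefore does not tell which transcript ends were counted. S-phase genes were called in 3 higher and 1 lower of 28. On the log2 share of Rn45s, 0 of 60 histone genes were called and 0 had an unadjusted p under 0.05, where 0.0345% of all genes were called, although 57 slopes were negative. Rpph1 and histone mRNAs both come from counts of the same library, so the slope describes how these shares moved together, and what lay behind it was not tested.

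**Figure D3:**
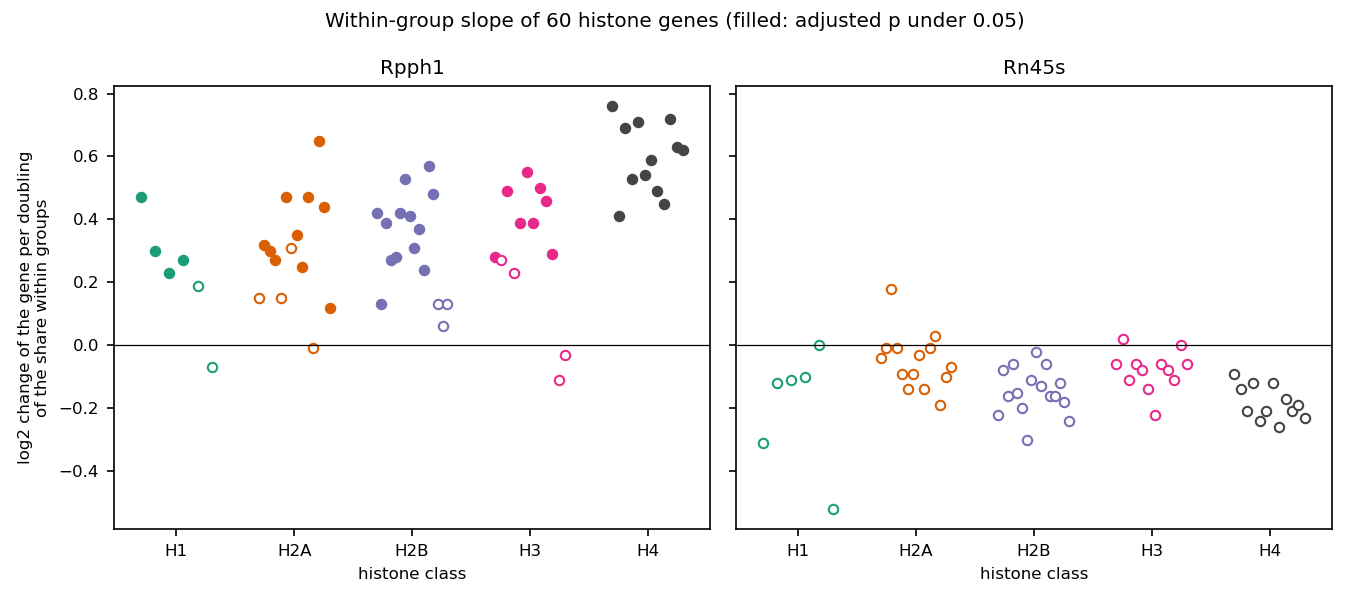
Slope of each of the 60 histone genes (log2 change per doubling of the share within groups) on the Rpph1 share at left and the Rn45s share at right, by histone class, with filled points for an adjusted p under 0.05. On Rpph1 all 12 H4 points are filled and above 0, and on Rn45s no point is filled.

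In the lesions no histone gene passed the test between KO and WT. Of 56 genes tested, 0 rose and 0 fell (edgeR quasi-likelihood test, adjusted p under 0.05), as for all 14993 genes tested (0.0% called), and DESeq2 called 0 as well. 2 of the 56 had an unadjusted p under 0.05, and 41 of 56 fold changes were above 0, with a median of 0.097 against -0.0086 over all genes. Hist1h1c had 153.1, 178.2, 162.3 and 176.0 CPM in KO lesions, against 130.2, 129.2, 144.8 and 142.8 CPM in WT lesions. The ranges did not overlap, and the log2 fold change was 0.29 ± 0.087 (SE) with an adjusted p of 0.192. Hist1h2bc had 51.8, 60.8, 65.1 and 59.7 CPM in KO lesions and 39.7, 51.1, 50.3 and 53.7 CPM in WT lesions, and 1 KO library lay within the WT range (log2 fold change 0.29 ± 0.11, adjusted p = 0.29). Hist1h4i had 8.82, 3.12, 2.75 and 5.26 CPM in KO lesions, 1 library apart from the others, against 2.76, 2.94, 2.67 and 3.13 CPM in WT lesions (0.76 ± 0.35, adjusted p = 0.362). The summed histone level was 785.0 ± 67.0 CPM in KO lesions and 714.8 ± 109.8 CPM in WT lesions (SD, n = 4 each), and the H4 sum was 185.3 ± 21.4 and 180.9 ± 38.4 CPM.

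Markers of the cell types in the lesions were compared as summed levels, with no test of the sums. Macrophage markers (Cd68, Lyz2, Emr1, Csf1r, Tyrobp, Trem2), all detected, summed to 3378.3 to 8308.5 CPM in KO lesions and 1999.8 to 3035.5 CPM in WT lesions. Smooth muscle markers summed to 3628.0 to 5350.5 CPM in KO lesions and 5058.5 to 7964.6 CPM in WT lesions. Thymocyte markers (Rag1, Dntt, Ptcra, Cd8a, Cd8b1) summed to 10.6 to 56.0 CPM in KO lesions and 32.9 to 135.2 CPM in WT lesions. Endothelial markers (Pecam1, Cdh5, Tek, Tie1) summed to 847.1 to 1011.7 CPM in KO lesions and 655.6 to 786.3 CPM in WT lesions. The ranges of the macrophage and endothelial sums did not overlap between the groups, and those of the smooth muscle and thymocyte sums did. None of these lists had a gene called, their part in the histone levels was not tested, and in tissue RNA fewer cells of a type cannot be told apart from less RNA per cell. The 12 replication-independent histone variants had 0 called genes too. H3f3a and H3f3b, which encode H3.3, had log2 fold changes of 0.37 and 0.36, and Cenpa, the centromeric H3, had 0.60.

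Under hypoxia, clustered histone genes moved in both directions, with H3 genes at both ends. Hypoxia was compared with normoxia 4 times, in KO and WT cells with vehicle or POVPC, and the 4 comparisons share no libraries. In KO cells 8 genes rose and 12 fell with vehicle (of 60, where 65.4% of all genes were called, 32.6% higher and 32.8% lower), and 19 rose and 9 fell with POVPC (68.5%, 34.5% higher and 33.9% lower). In WT cells 17 rose and 5 fell with vehicle (68.1%, 32.8% higher and 35.3% lower), and 13 rose and 11 fell with POVPC (66.1%, 31.8% higher and 34.3% lower). Every one of these counts is a lower share than that of all genes. Medians were -0.13 and 0.24 in KO cells and 0.22 and 0.28 in WT cells, against 0.015, 0.026, -0.032 and -0.024 over all genes. H4 genes were called least, with 1 of 12 in 3 of the comparisons and 0 in WT cells with vehicle. 22 of the 60 genes were called in none of the 4 comparisons, against 9.52% of all genes, and 1, Hist1h2bh, was called in both directions, against 8.02%. Some counts moved with single libraries. In WT cells with vehicle 13 rose and 15 fell without replicate 2 under hypoxia, the library with 8.23% Rpph1, and 3 fell without replicate 3 of that group. With POVPC, 8 rose in WT cells without replicate 2 under hypoxia, the library with 8.08% Rpph1, and 12 rose in KO cells without replicate 1 under normoxia. With the log2 Rpph1 share as a covariate, added after the data had been seen, 8 rose and 30 fell in KO cells with vehicle (66.9% of all genes called, 33.8% higher and 33.1% lower), and 20 rose and 17 fell with POVPC (70.8%, 36% higher and 34.8% lower). In that fit 25 rose and 11 fell in WT cells with vehicle (71.1%, 34.2% higher and 36.9% lower), and 11 rose and 24 fell with POVPC (65.4%, 32.1% higher and 33.2% lower). Of the 12 H4 genes, 0 rose and 9 fell in that fit in KO cells with vehicle, and 1 rose and 5 fell with POVPC. In WT cells 2 H4 genes rose and 3 fell with vehicle (median 0.11), and 0 rose and 7 fell with POVPC. Rpph1 shares in WT cells with POVPC did not overlap, at 3.69 to 8.08% under hypoxia and 1.38 to 2.92% under normoxia. There the fit rests on 1 slope shared by all 8 groups, and whether it holds between these groups was not tested.

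Summed levels of fibroblast and smooth muscle markers were lower under hypoxia in the same libraries, and those of macrophage and endothelial markers, low throughout, were mostly higher, with no test of the sums. Markers of adventitial fibroblasts (Pi16, Dpt, Cd34, Pdgfra), all detected, summed to 279.2 to 321.5 CPM under hypoxia and 586.1 to 635.7 CPM under normoxia in KO cells with vehicle, and to 247.7 to 324.1 against 559.5 to 635.6 CPM with POVPC. In WT cells they summed to 23.6 to 26.6 CPM under hypoxia and 265.6 to 289.9 CPM under normoxia with vehicle, and to 23.1 to 26.3 against 138.5 to 156.4 CPM with POVPC. Of these 4 genes, 3 fell in each comparison except WT cells with vehicle, where 2 fell and 1 rose. Over the 4 comparisons, 32.8 to 35.3% of all genes fell and 31.8 to 34.5% rose, and lists this short are not tested against these shares. Smooth muscle markers summed to 51.8 to 65.9 CPM under hypoxia and 278.6 to 331.7 CPM under normoxia in WT cells with vehicle, where 5 of 6 fell and 1 rose, and to 22.3 to 32.3 against 65.8 to 79.9 CPM in WT cells with POVPC, where 4 fell. In KO cells they summed to 53.3 to 56.1 CPM under hypoxia and 63.2 to 70.7 CPM under normoxia with vehicle (1 rose and 1 fell), and to 24.9 to 45.2 against 50.9 to 61.6 CPM with POVPC (1 rose and 2 fell). None of the sums of these 2 lists overlapped between hypoxia and normoxia. Macrophage markers summed to 5.77 to 6.57 CPM under hypoxia and 2.02 to 2.93 CPM under normoxia in WT cells with vehicle, and to 7.19 to 8.01 against 3.48 to 4.25 CPM with POVPC. In KO cells they summed to 2.55 to 3.54 CPM under hypoxia and 2.37 to 2.72 CPM under normoxia with vehicle, which overlapped, and to 3.61 to 4.88 against 1.76 to 2.58 CPM with POVPC. Between 1 and 4 of the 6 macrophage genes had 0 counts in a whole group, Trem2 in 6 of the 8 groups. Endothelial markers summed to 0.858 to 1.64 CPM under hypoxia and 0.239 to 0.461 CPM under normoxia in KO cells with vehicle, and to at most 3.28 CPM in any culture library. The part of these markers in the histone levels was not tested.

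Hist1h3c (chr13:23836911-23837390 on mm9), a single-exon H3 gene of Hist1, fell in each comparison. In KO cells with vehicle it had 0.422, 0.858 and 0.204 CPM under hypoxia and 30.7, 22.5 and 12 CPM under normoxia. In KO cells with POVPC it had 0.664, 0.542 and 0.8 CPM under hypoxia and 11.4, 15.8 and 19.1 CPM under normoxia. In WT cells with POVPC it had 2.27, 4.1 and 1.99 CPM under hypoxia and 22.2, 23.4 and 30 CPM under normoxia. No hypoxic library of Hist1h3c reached a normoxic one in these comparisons. In WT cells with vehicle the gap was small, with 2.45, 5.27 and 2.91 CPM under hypoxia and 7.81, 5.31 and 8.67 CPM under normoxia. The log2 fold changes of Hist1h3c were -5.29 ± 0.47 and -4.52 ± 0.43 in KO cells with vehicle and POVPC, and -1.08 ± 0.35 and -3.32 ± 0.38 in WT cells (SE, adjusted p between 0.01 and 5.62e-09).

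Other Hist1 genes fell as well, though not all those near Hist1h3c did: Hist1h3a was called higher in 2 of the 4 comparisons and lower in 0. Hist1h3b, another H3 gene, had 0.337, 0.191 and 0.102 CPM in KO cells with vehicle under hypoxia and 3.23, 3.16 and 2.07 CPM under normoxia, which were 8, 4 and 1 counts against 63, 72 and 52. Its log2 fold change was -3.54 and -3.08 in KO cells with vehicle and POVPC and -2.82 in WT cells with POVPC, and it was not called in WT cells with vehicle (-0.46). Hist1h3g, also for H3, had 0, 4 and 2 counts in KO cells with vehicle under hypoxia and 129, 94 and 58 under normoxia, a log2 fold change of -5.21 ± 0.57. Hist1h2af, an H2A gene, fell in all 4 comparisons, with log2 fold changes of -3.99 and -3.16 in KO cells and -1.39 and -2.88 in WT cells with vehicle and POVPC. Hist1h2ab (H2A) and Hist1h1c (H1.2) were the other genes lower in all 4. Genes lower in each of 4 comparisons were 19.8% of all genes and 4 of these 60. Hist1h1c had 98.6, 101.5 and 120.4 CPM in KO cells with vehicle under hypoxia and 277.1, 246.3 and 172.8 CPM under normoxia, and in WT cells with vehicle 80.2, 117.8 and 88.2 CPM under hypoxia and 187.8, 222.9 and 236.3 CPM under normoxia. Hist1h1b, encoding H1.5, fell by 1.89 in WT cells with POVPC, with 9.84, 7.79 and 10.5 CPM under hypoxia against 30.6, 32.6 and 43.8 CPM under normoxia.

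Genes that rose lay in 3 clusters. 18 of 47 Hist1 genes, 5 of 9 Hist2 genes and 2 of 3 Hist3 genes were called higher in at least 1 comparison, together 25 of 60 against 48.7% of all genes. 14 genes, all of Hist1, were called lower in at least 1, against 49.8%. 6 genes were higher in each of the 4 comparisons, against 18.7% of all genes: Hist1h2bc, Hist2h2aa1, Hist2h3c1, Hist2h3c2, Hist3h2a and Hist3h2ba. Hist2h3c1 (chr3:96050608-96052432 on mm9), an H3 gene, had 16.8, 19.2 and 16.3 CPM in KO cells with vehicle under hypoxia and 3.18, 4.43 and 4.54 CPM under normoxia. In KO cells with POVPC it had 25.7, 20.6 and 25.4 CPM under hypoxia and 3.4, 3.81 and 2.33 CPM under normoxia. In WT cells with vehicle it had 19.6, 21.1 and 27.5 CPM under hypoxia and 2.88, 3.47 and 3.36 CPM under normoxia. Hypoxic and normoxic libraries of Hist2h3c1 were far apart in each case, and with POVPC the WT values were 29.3, 34.4 and 48.0 against 5.1, 5.58 and 5.64 CPM. The log2 fold changes were 2.10 ± 0.19, 2.90 ± 0.18, 2.81 ± 0.18 and 2.79 ± 0.18 in the same order. Hist2h3c2, its neighbour on the other strand, rose by 2.36 and 2.23 in KO cells and 2.94 and 2.41 in WT cells with vehicle and POVPC. Of the 50-base windows of their transcripts, 34.7% in Hist2h3c1, 63.5% in Hist2h3c2 and 96.3% in Hist2h2aa1 also occur in other genes. Hist2h3c1 shares windows with Hist2h3c2, so these genes may share reads and their changes may not be separate. The Hist2 cluster had 3 of 9 genes higher in each KO comparison, where 32.6% and 34.5% of all genes were higher with vehicle and POVPC. It had 4 higher with vehicle and 5 with POVPC in WT cells, where 32.8% and 31.8% of all genes were, and 0 of 9 lower in any of the 4, where 32.8 to 35.3% of all genes were.

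Hist1h2bc (chr13:23776068-23784349 on mm9), an H2B gene, had 255.6, 246.7 and 260.9 CPM in KO cells with vehicle under hypoxia and 109.7, 104.2 and 77.1 CPM under normoxia, and in WT cells with vehicle 182.3, 236.2 and 180.3 CPM under hypoxia and 40.6, 39.1 and 38.8 CPM under normoxia. It rose by 1.39 and 2.34 on the log2 scale in these comparisons, and by 1.68 and 1.76 in KO and WT cells with POVPC. Its deposited model has 2 exons, which is unusual for the family. Hist3h2a (chr11:58768187-58770176 on mm9), the H2A gene of the Hist3 cluster, had 122.5, 117.5 and 126.1 CPM in KO cells with vehicle under hypoxia and 75.6, 68.7 and 55.8 CPM under normoxia, and rose by 0.87 and 0.82 in KO cells and 1.15 and 1.4 in WT cells with vehicle and POVPC. Hist3h2ba, for H2B, was low, with 3.37, 2.1 and 2.45 CPM against 1.13, 1.58 and 1.04 CPM in KO cells with vehicle. Of the genes higher in all 4, Hist2h3c1, Hist2h3c2 and Hist3h2a have annotated transcripts running far past the stem-loop, but so does Hist1h1c, which was lower in all 4. The others higher in all 4 do not: the transcript ends 35 bases past the stem-loop in Hist2h2aa1 and 169 in Hist3h2ba. In that of Hist1h2bc no stem-loop was found. Hist1h1t was called higher in 3 of the 4 but rests on few reads, with 7, 10 and 5 counts in KO cells with vehicle under hypoxia against 0, 3 and 2 under normoxia. By deposited length, genes over 700 bases of exon were called in 7 of 16 (6 rose) and 7 of 16 (6 rose) in KO cells with vehicle and POVPC, and in 9 (7 rose) and 8 (7 rose) in WT cells. Those of at most 700 bases were called in 13 of 44 (2 rose) and 21 (13 rose) in KO cells, and in 13 (10 rose) and 16 (6 rose) in WT cells. Of all genes, 65.4% were called in KO cells with vehicle (32.6% higher) and 68.5% with POVPC (34.5% higher). In WT cells 68.1% of all genes were called with vehicle (32.8% higher) and 66.1% with POVPC (31.8% higher).

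**Figure D4:**
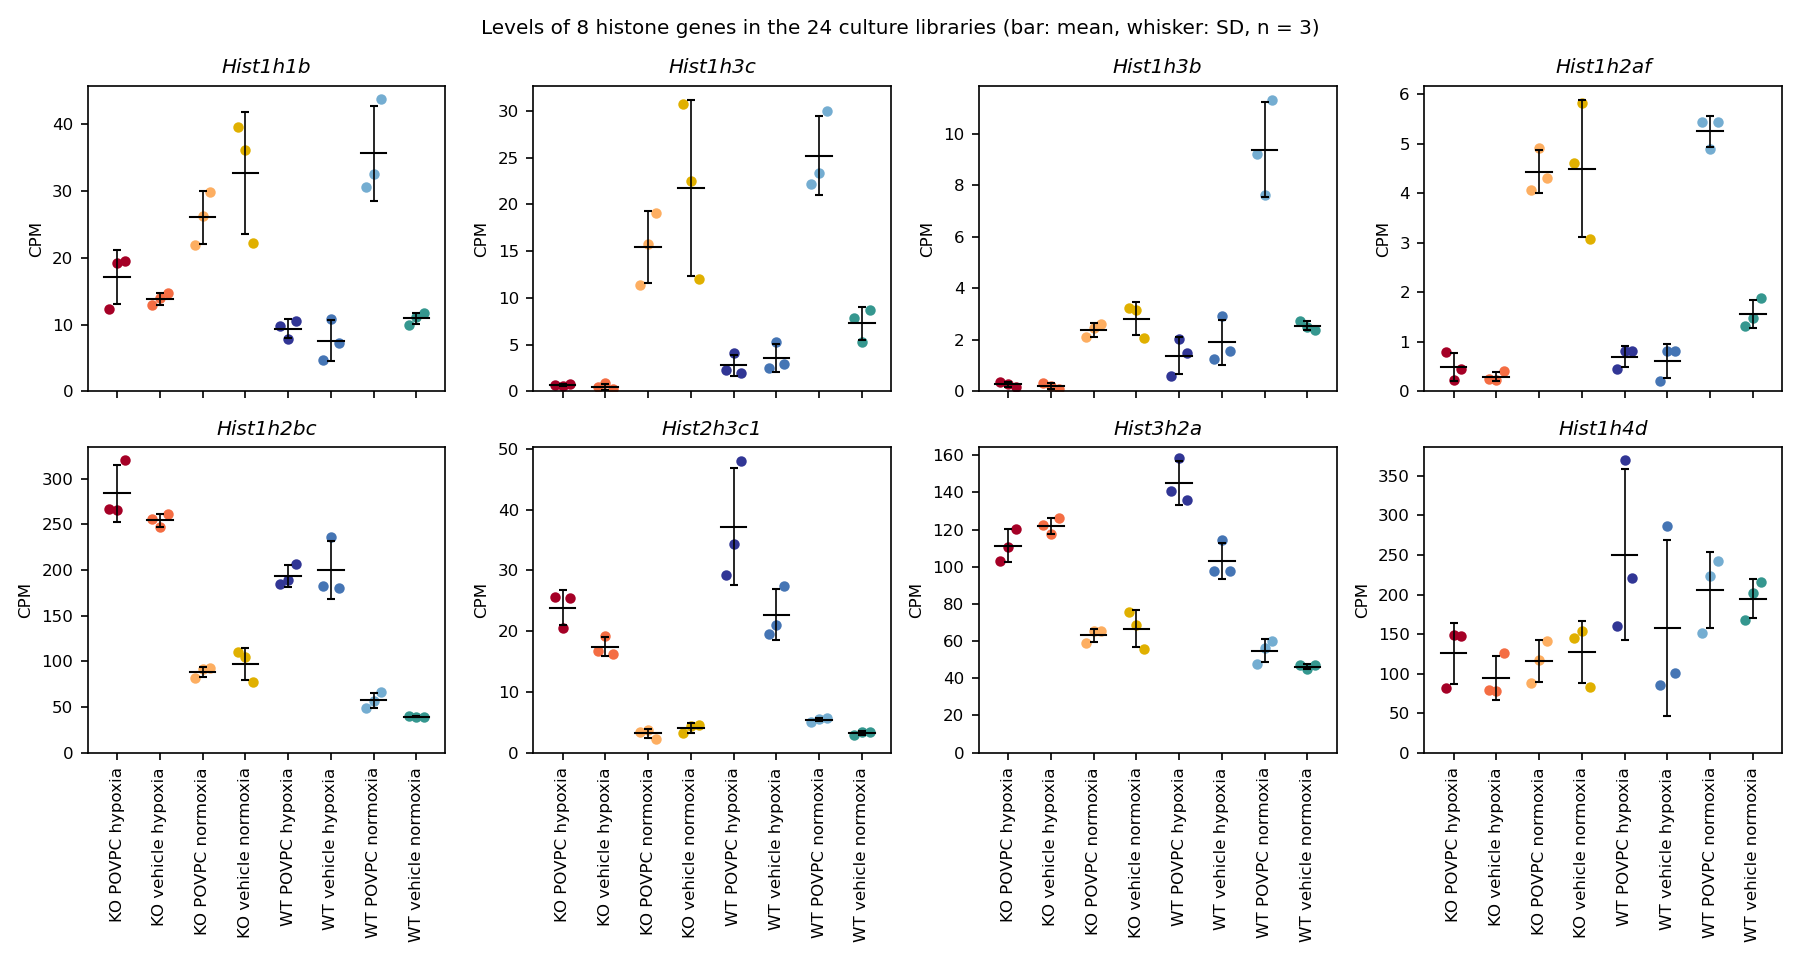
CPM of 8 histone genes in the 24 culture libraries, with 1 point per library, a bar for the mean and whiskers for the SD (n = 3) in each of the 8 groups, KO left of WT. Hist1h3c, Hist1h3b and Hist1h2af are lowest in KO cells under hypoxia, whereas Hist1h2bc, Hist2h3c1 and Hist3h2a are higher in all hypoxic groups than in the normoxic groups with the same genotype and treatment.

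Counts for other genes of the cell cycle and of histone supply are read against the 65.4% (KO, vehicle), 68.5% (KO, POVPC), 68.1% (WT, vehicle) and 66.1% (WT, POVPC) of all genes called under hypoxia. They were 85.7, 78.6, 71.4 and 78.6% of S-phase genes and 93.8, 93.8, 50 and 93.8% of mitosis genes in that order. They were 62.5, 62.5, 68.8 and 75% of the genes for histone transcription and 3′ processing, 83.3, 83.3, 75 and 83.3% of the variants and 72.2, 72.2, 94.4 and 72.2% of the chaperones. Of 28 S-phase genes, 12 rose and 12 fell in KO cells with vehicle and 13 rose and 9 fell with POVPC, while in WT cells 17 rose and 3 fell with vehicle and 4 rose and 18 fell with POVPC. Pcna, the sliding clamp of DNA polymerase, rose in all 4, by 1.29 and 1.43 in KO cells and 1.92 and 1.27 in WT cells. Tk1, the S-phase thymidine kinase, fell by 2.84 in WT cells with POVPC. Of 16 mitosis genes, 15 fell in each KO comparison, 5 in WT cells with vehicle and 14 in WT cells with POVPC. Of 18 genes for histone transcription and 3′ processing, 16 were tested and 7 or 8 rose in each comparison. Ncbp1, of the nuclear cap-binding complex, rose by 0.72, 0.85, 0.86 and 1.03 in KO cells with vehicle and POVPC and in WT cells with vehicle and POVPC. Slbp, which binds the stem-loop, rose by 0.53, 0.82, 0.62 and 0.35 in the same order. Of 12 replication-independent variants, H3f3b (H3.3) rose by 0.87 and 1.01 in KO cells and 0.93 and 1.00 in WT cells, whereas H2afv (H2A.Z.2) fell, with -1.07 and -1.06 in KO cells and -1.71 and -1.29 in WT cells. Of 18 histone chaperones, 11 rose in each KO comparison, and 14 and 9 rose in WT cells with vehicle and POVPC.

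The size of the hypoxia change differed between genotypes for some H3 and H2A genes. With vehicle, the difference (KO minus WT change) was called for 11 of 60 histone genes, 1 higher and 10 lower, where 39.1% of all genes were called, 19.2% higher and 19.9% lower. It was -4.34 ± 0.77 for Hist1h3g (SE, adjusted p = 4.11e-05), -4.21 ± 0.62 for Hist1h3c (adjusted p = 1.86e-05), -3.07 ± 0.54 for Hist1h3b and -2.60 ± 0.59 for Hist1h2af. Hist1h3d was the 1 gene with a higher change in KO cells. It had 49, 42 and 10 counts in KO cells with vehicle under hypoxia and 20, 4 and 2 under normoxia, against 51, 71 and 76 and 64, 74 and 66 counts in WT cells, and the difference was 1.97 ± 0.65. With POVPC, 6 genes were called, 3 in each direction, where 30% of all genes were called, 15.7% higher and 14.4% lower. Hist1h3d (2.72 ± 0.61) and Hist1h1b (1.28 ± 0.35) had the higher change in KO cells, and Hist3h2ba (-1.61 ± 0.44) and Hist3h2a (-0.58 ± 0.13) the lower. Of the 9 counts of Hist1h3c, Hist1h3b and Hist1h3g in hypoxic KO libraries with vehicle, 6 were 4 or lower, so these folds are imprecise. With vehicle, 17 genes were called without replicate 3 of KO cells under normoxia, the library with 1.15% Rpph1, and 7 without replicate 2 of that group. With the log2 Rpph1 share as a covariate, 1 difference was positive and 34 were negative with vehicle, where 46.5% of all genes were called, 23.6% positive and 22.8% negative. The negative share was then above that of all genes, and without the covariate it was below. With POVPC, 10 were positive and 4 negative in that fit, where 34.4% of all genes were called, 17.4% positive and 16.9% negative. Rpph1 shares of WT cells with POVPC did not overlap between hypoxia and normoxia, as given above.

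**Figure D5:**
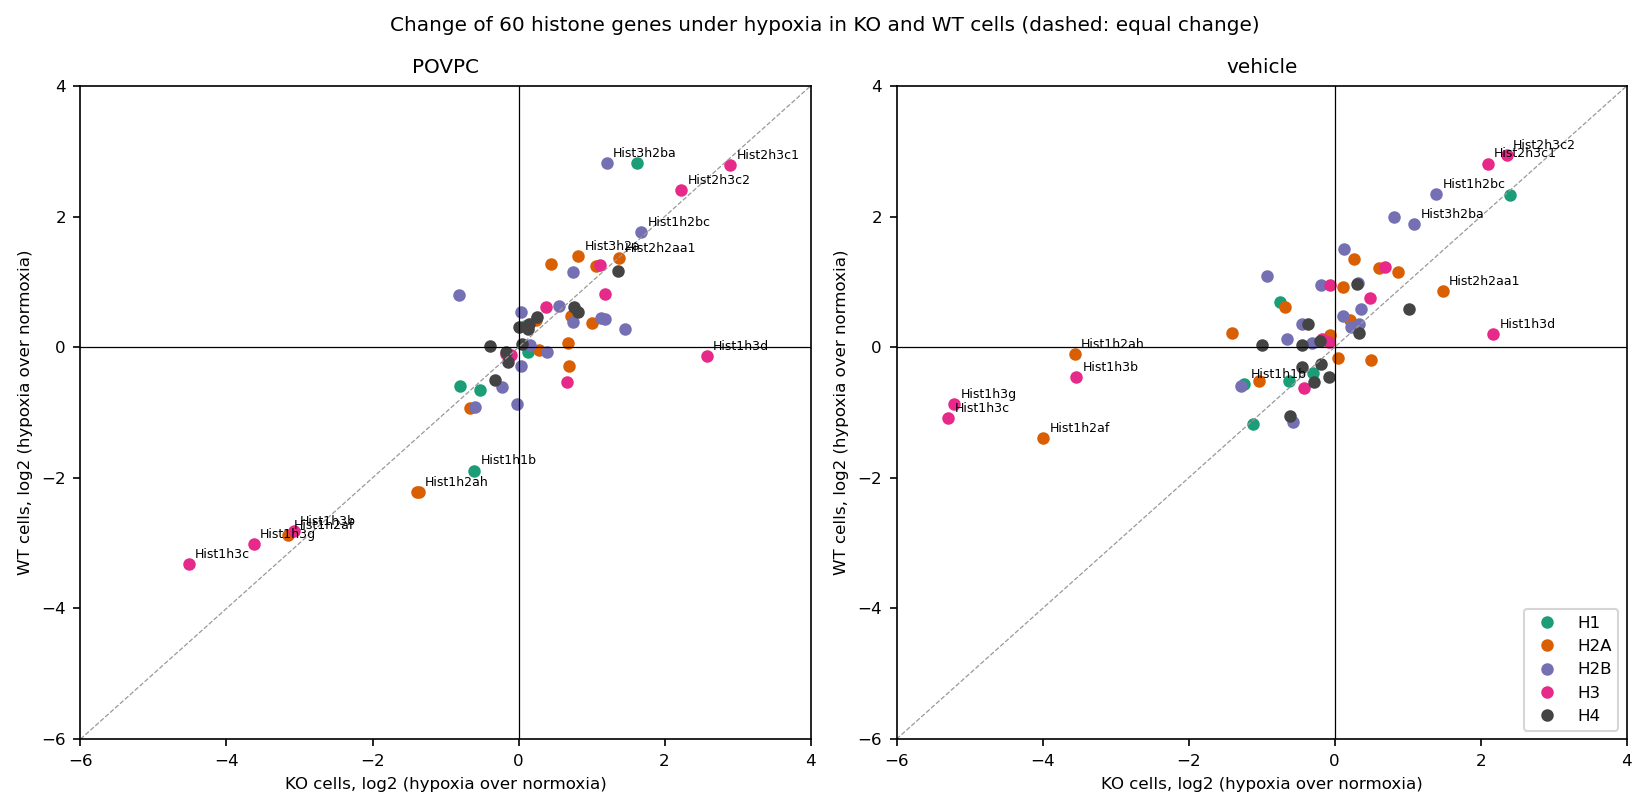
Log2 change under hypoxia of 60 histone genes in KO cells (x axis) and in WT cells (y axis), with POVPC at left and vehicle at right, coloured by histone class, and a dashed line where both changes are equal. With vehicle, Hist1h3c (-5.29 and -1.08) and Hist1h3g (-5.21 and -0.87) lie far left of the dashed line, and Hist2h3c1 (2.10 and 2.81) lies near it.

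With POVPC, called histone genes were higher in WT cells, and none was called in KO cells. The summed histone level overlapped between the groups, at 1555.4 to 2369.7 CPM with POVPC and 1326.2 to 1631.3 CPM with vehicle in WT cells under normoxia, and 1798.0 to 3072.9 against 1138.8 to 2358.0 CPM under hypoxia. In WT cells under normoxia 29 of 60 genes rose and 0 fell with POVPC, where 26.9% of all genes were called, 13.1% higher and 13.8% lower, and the median was 0.85 against -0.019 over all genes. H1 had 4 of 6 genes higher, H2A 8 of 14, H2B 10 of 16 and H3 7 of 12, while H4 had 0 of 12 with a median of 0.11. Hist1h3b had 9.22, 7.64 and 11.3 CPM with POVPC and 2.74, 2.51 and 2.39 CPM with vehicle, a log2 fold change of 1.88 ± 0.26 (SE, adjusted p = 1.49e-06). Hist1h1b had 30.6, 32.6 and 43.8 CPM with POVPC and 10, 11.1 and 11.7 CPM with vehicle (1.70 ± 0.24, adjusted p = 1.8e-05). Hist1h2ab had 12.7, 14.6 and 17.5 CPM against 5.47, 6.33 and 6.47 CPM (1.29 ± 0.17, adjusted p = 4.11e-07). For all 3 genes each POVPC library was above each vehicle library. Hist1h3a and Hist1h2af rose by 1.71 and 1.74, and Hist1h2ah, an H2A gene of 56, 70 and 59 counts against 13, 14 and 16, by 2.38. Among H4 genes, Hist1h4h had 85.2, 116.1 and 136.5 CPM with POVPC and 128.1, 127.0 and 148.5 CPM with vehicle, and the groups overlapped.

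S-phase and mitosis genes rose in the same libraries. 25 of 28 S-phase genes rose and 0 fell, among them Tk1 (1.80 ± 0.12), Mcm5 (1.41 ± 0.12) and Mcm2 (1.23 ± 0.10), the last 2 being subunits of the replicative helicase. All 16 mitosis genes rose, as did H2afx (0.85), the variant phosphorylated at DNA breaks, and the chromatin assembly genes Asf1b (1.69) and Chaf1b (1.19). Of the 16 tested genes for histone transcription and processing, 3 rose, Eri1 (0.44), Slbp (0.20) and Casp8ap2 (0.26). Smooth muscle markers summed to 65.8 to 79.9 CPM with POVPC and 278.6 to 331.7 CPM with vehicle, and 5 of 6 fell. Rpph1 took 1.38 to 2.92% of counts with POVPC and 3.39 to 4.55% with vehicle, and Rn45s took 3.23 to 11.1% against 1.31 to 1.5%. With the log2 Rpph1 share as a covariate, an alternative added after the data had been seen, 52 of 60 histone genes rose and 0 fell, where 32.5% of all genes were called. H4 genes were among them, with 9 of 12 higher and a median of 0.61. The Rpph1 shares of these groups did not overlap. The values of that fit therefore rest on 1 slope shared by all 8 groups, and whether it holds between these groups was not tested.

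In WT cells under hypoxia 14 of 60 genes rose and 0 fell with POVPC, where 21% of all genes were called, 8.22% higher and 12.7% lower (median 0.61 against -0.014). This count moved with single libraries. It was 28 without replicate 2 of the vehicle group, the library with 8.23% Rpph1, and 6 and 7 without replicates 1 and 3 of the same group. Without replicates 2 and 3 of the POVPC group it was 7 and 9. The share of all genes called without each of these libraries is not given here, so these counts cannot be read against it. With the log2 Rpph1 share as a covariate 23 rose and 1 fell, where 26.3% of all genes were called. Hist1h1d, encoding H1.3, had 103.3, 114.2 and 139.1 CPM with POVPC and 41.8, 72.2 and 52.7 CPM with vehicle (1.11 ± 0.24, adjusted p = 0.00356), and Hist1h1c had 155.3, 193.9 and 189.2 CPM against 80.2, 117.8 and 88.2 CPM (0.91 ± 0.19, adjusted p = 0.00168). Hist3h2a had 140.9, 158.6 and 135.9 CPM against 97.7, 114.5 and 97.7 CPM (0.49 ± 0.095). POVPC values of all 3 genes were above the vehicle values. Here S-phase genes went the other way, with 0 higher and 14 of 28 lower, Cdc6 (-1.55 ± 0.20) and Mcm5 (-1.08 ± 0.12) among them. Rpph1 took 3.69 to 8.08% of counts with POVPC and 1.90 to 8.23% with vehicle.

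In KO cells 0 of 60 genes were called between POVPC and vehicle, under normoxia (0.0414% of all genes called, 0.0069% higher and 0.0345% lower) and under hypoxia (4.06%, 1.97% higher and 2.09% lower). At an unadjusted p under 0.05 there were 3 and 6, and DESeq2 called 0 and 1. Hist1h2bk, for H2B, had 2.35, 3.49 and 4.66 CPM with POVPC and 7.02, 6.57 and 3.42 CPM with vehicle under normoxia, where the groups overlapped (-0.70 ± 0.30, adjusted p = 0.656). The vehicle group of the normoxic comparison holds the library with 1.15% Rpph1 and 8.02% Rn45s. Hist1h2ak (0.70 ± 0.23, adjusted p = 0.095) and Hist2h3c1 (0.45 ± 0.16, adjusted p = 0.123) had the smallest p under hypoxia. With the Rpph1 share as a covariate, 0 genes were called under normoxia and 28 rose under hypoxia, where 7.36% of all genes were called.

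The response to POVPC differed between genotypes under normoxia. The difference (KO minus WT change) was negative and called for 25 of 60 histone genes and positive for 0, where 16.2% of all genes were called, 8.17% positive and 8.0% negative, with a median of -1.02 against 0.025. It was called for 3 of 6 H1 genes, 8 of 14 H2A genes, 8 of 16 H2B genes, 6 of 12 H3 genes and 0 of 12 H4 genes. Hist1h2ah had the largest, -3.31 ± 0.57 (SE, adjusted p = 7.77e-05), followed by Hist1h3g (-2.49 ± 0.48), Hist1h2bk (-2.42 ± 0.44), Hist1h3b (-2.11 ± 0.38), Hist1h1b (-2.02 ± 0.34) and Hist1h3a (-2.0 ± 0.35) among the 6 with the smallest p. 22 of 28 S-phase genes and 14 of 16 mitosis genes had a called negative difference as well. Under hypoxia 1 histone gene was called, Hist3h2a (-0.62 ± 0.13, adjusted p = 0.00284), where 9.37% of all genes were called, 5.89% positive and 3.48% negative. Without replicate 2 of WT cells with vehicle under hypoxia 6 were called, and 2 without replicate 1 or 3 of KO cells with vehicle. Under normoxia 16 genes were called without replicate 3 of WT cells with POVPC. With the log2 Rpph1 share as a covariate, 0 were positive and 43 negative under normoxia (22.5% of all genes called), 5 of the 12 H4 genes among them, and 6 positive and 1 negative under hypoxia (12.4%). Rpph1 shares of WT cells under normoxia did not overlap between POVPC and vehicle, as given above.

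Called histone genes were mostly higher in KO than in WT cells with vehicle under normoxia, mostly lower with POVPC, and split between both directions with vehicle under hypoxia. The dependence on POVPC was called for 25 of 60 genes under normoxia and for 1 of 60 under hypoxia, as given above. The 4 comparisons share no libraries with each other, but they use the same libraries as those of hypoxia and POVPC, so their values are not independent of them. With vehicle, 22 of 60 genes rose and 4 fell in KO cells under normoxia (60.6% of all genes called, 29.8% higher and 30.8% lower, median 0.4), and 7 rose and 8 fell under hypoxia (59.9%, 29.5% higher and 30.4% lower, median -0.002). With POVPC, 4 rose and 24 fell under normoxia (60.2%, 29.5% higher and 30.7% lower, median -0.65), and 5 rose and 16 fell under hypoxia (57.6%, 30% higher and 27.6% lower, median -0.5). The share of histone genes called was 43.3, 25, 46.7 and 35% in that order, below the share of all genes in each comparison. The 22 that rose with vehicle and the 24 that fell with POVPC, both under normoxia, were the counts above the share of all genes in their direction. The medians over all genes lay between -0.019 and 0.022. All 12 H3 genes fell in KO cells with POVPC under normoxia and 8 of 12 under hypoxia, whereas with vehicle under normoxia 11 of 16 H2B genes rose. H4 genes were called at most 2 of 12 times in any of the 4 comparisons. Over the 4 comparisons 22 genes rose in at least 1, against 48.6% of all genes, 28 fell in at least 1, against 48.9%, and 18 were called in none, against 12.7%. With vehicle under hypoxia the number that rose was 15 without replicate 2 of WT cells, 3 without replicate 1 or 3 of WT cells and 4 without replicate 3 of KO cells. With POVPC under normoxia the number that fell was 12 without replicate 3 of WT cells, and 13 and 15 without replicates 1 and 2 of KO cells. With vehicle under normoxia 2 fell without replicate 2 of WT cells or replicate 1 of KO cells. With the log2 Rpph1 share as a covariate, 30 rose and 7 fell with vehicle under normoxia (64.5% of all genes called, 31.4% higher and 33% lower), and 6 rose and 23 fell under hypoxia (62.1%, 31% higher and 31.2% lower). With POVPC, 6 rose and 38 fell under normoxia in that fit (64.3%, 31.6% higher and 32.7% lower), and 7 rose and 23 fell under hypoxia (60.1%, 31% higher and 29.1% lower). Of the 12 H4 genes, 3 rose and 3 fell in that fit with vehicle under normoxia, and 1 rose and 10 fell under hypoxia. With POVPC, 1 H4 gene rose and 10 fell under normoxia, and 1 rose and 6 fell under hypoxia.

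Hist1h2ab (chr13:23842957-23843462 on mm9), for H2A, was the 1 gene lower in KO cells in all 4 comparisons, as were 13.8% of all genes. It had 3.53, 3.24 and 3.82 CPM in KO cells with POVPC under normoxia and 12.7, 14.6 and 17.5 CPM in WT cells (-2.08 ± 0.17, adjusted p = 2.07e-11). With vehicle under hypoxia it had 1.43, 1.1 and 2.24 CPM in KO cells and 4.45, 4.94 and 3.45 CPM in WT cells (-1.51 ± 0.22). KO and WT libraries of Hist1h2ab did not overlap in either pair. Hist1h2bm and Hist1h2bc, both for H2B, were higher in KO cells in all 4, as were 14% of all genes. Hist1h2bm had 9.94, 11.3 and 5.66 CPM in KO cells with vehicle under normoxia and 2.02, 1.62 and 2.02 CPM in WT cells (2.24 ± 0.28, adjusted p = 1.26e-07), and rose by 1.88, 1.01 and 1.38 in the other comparisons (vehicle with hypoxia, POVPC with normoxia, POVPC with hypoxia). Hist1h2bc rose by 1.30, 0.35, 0.63 and 0.56 in the same 4.

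Some genes changed direction between conditions. Hist1h3c had 30.7, 22.5 and 12 CPM in KO cells with vehicle under normoxia and 7.81, 5.31 and 8.67 CPM in WT cells, but 0.422, 0.858 and 0.204 CPM against 2.45, 5.27 and 2.91 CPM under hypoxia. 8 of 60 genes were called in both directions across the 4 comparisons, against 10.3% of all genes: Hist1h2ah, Hist1h2bh, Hist1h2bk, Hist1h2bl, Hist1h3a, Hist1h3c, Hist1h3g and Hist3h2a. Hist1h3d was low in normoxic KO cells, with 12, 16 and 4 counts with POVPC against 93, 131 and 96 in WT cells (-3.57 ± 0.45, adjusted p = 1.55e-07), and 20, 4 and 2 against 64, 74 and 66 counts with vehicle. Its gene model lies in Hist1, and 24.8% of the 50-base windows of its transcript are shared with other genes.

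Among genes for histone supply, Ncbp1 rose by 1.51, 1.37, 1.47 and 1.29 in KO cells (vehicle with normoxia and hypoxia, POVPC with normoxia and hypoxia), and Casp8ap2, which encodes a histone locus body protein, by 1.32, 1.48, 1.06 and 1.44. H3f3b fell in the same comparisons (-0.56, -0.63, -0.59 and -0.58), while H3f3a rose by 0.77, 0.39, 0.60 and 0.57. Of 28 S-phase genes, 8 rose and 3 fell with vehicle under normoxia, 3 rose and 18 fell under hypoxia, 0 rose and 23 fell with POVPC under normoxia, and 8 rose and 9 fell under hypoxia. These were 39.3, 75, 82.1 and 60.7% of the list, against 60.6, 59.9, 60.2 and 57.6% of all genes called. Markers of adventitial fibroblasts summed to 247.7 to 635.7 CPM in KO cells and 23.1 to 289.9 CPM in WT cells, while smooth muscle markers summed to 24.9 to 70.7 CPM in KO cells and 22.3 to 331.7 CPM in WT cells. The part of these markers in the histone levels was not tested.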

How the data were processed

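RNA-seq libraries of 8 lesions and 24 cultures were analysed from the counts per gene that the authors deposited. The deposited counts come from featureCounts 1.4.4, run on mm9 exons grouped by gene name with strand ignored, per the file headers. Lesion counts are fragments with both mates mapped, and in culture each mate was counted, so the tables were fitted apart and levels are not compared by a test between them. The submitters' processing notes also list CASAVA, STAR, Subread and DESeq2. Reads that map to several genes can be lost or shared among these near-identical genes.

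From the counts, edgeR 4.0.16 (R 4.3.3) gave TMM scaling and quasi-likelihood tests over all genes kept by filterByExpr (minimum count 10, total 15), with Benjamini-Hochberg adjustment over all of them and 0.05 as threshold. Culture was 1 model of 8 groups. DESeq2 1.42.0 was an alternative. The test code was tested on simulated data. Genes named are the 12 highest per kilobase in each table and, per comparison, the 6 with the smallest p in each direction among those called, or the 3 smallest where none was, plus up to 4 genes of each other list. Others, such as genes followed across comparisons, were chosen after their values were seen. Members and lists were chosen with earlier results of these data known. The slopes and the Rpph1 covariate were added after the data had been seen. Alternatives also covered filters, scaling, read depth, single libraries left out and a replicate block.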

Additional observations from a re-analysis of the deposited data

Results flagged for a closer look

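Among 42 sets of 4 lesion values checked for a sample far from the others, 2 stood out, where chance gives about 1 in 20. Hist2h2ac had 9.72, 10.6, 15.1 and 9.92 CPM in WT lesions, and the gap between the highest and the next library was 0.836 of the range. The Rn45s share in WT lesions had such a gap too, 0.865 of the range.

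The other values concern changes that differed between KO and WT cells by a test of the difference (KO minus WT change, log2 scale). For POVPC under normoxia it was -3.31 for Hist1h2ah, -2.49 for Hist1h3g, -2.42 for Hist1h2bk, -2.11 for Hist1h3b, -2.02 for Hist1h1b and -2.0 for Hist1h3a. For POVPC under hypoxia it was -0.62 for Hist3h2a. For hypoxia with vehicle it was -4.34 for Hist1h3g, -4.21 for Hist1h3c, -3.46 for Hist1h2ah, -3.07 for Hist1h3b, -2.60 for Hist1h2af, -0.95 for Hist1h2bc and 1.97 for Hist1h3d. For hypoxia with POVPC it was 2.72 for Hist1h3d, 1.28 for Hist1h1b, 1.21 for Hist1h3a, -0.58 for Hist3h2a, -1.61 for Hist3h2ba and -1.62 for the pseudogene Hist3h2bb-ps. These comparisons share libraries with each other.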

How the results depend on the processing

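Of 2322 recomputed values of 140 named gene results, 2272 stayed on the same side of the threshold, 45 lost the call and 5 gained it. Where the main result was called, 0 changed sign, and direction was not compared where it was not called. Counts of called histone genes moved by over 1.5 times as follows, and the cause was not tested except where fewer genes were tested. With a mean of at least 5 CPM required, which leaves fewer genes, KO against WT gave 16 (vehicle, normoxia) and 18 (POVPC, normoxia), POVPC in WT cells under normoxia 18, hypoxia 15 (WT, POVPC), 11 (KO, vehicle) and 17 (KO, POVPC), and the differences between genotypes 2 (POVPC, hypoxia), 5 (hypoxia, vehicle) and 3 (hypoxia, POVPC). With the Rpph1 share as a covariate, KO against WT gave 29 (vehicle, hypoxia) and 44 (POVPC, normoxia), POVPC 52 (WT, normoxia), 24 (WT, hypoxia) and 28 (KO, hypoxia), hypoxia 36 (WT, vehicle) and 38 (KO, vehicle), and the differences between genotypes 43 and 7 (POVPC under normoxia and hypoxia) and 35 and 14 (hypoxia with vehicle and POVPC). Without the 3 shallowest culture libraries, KO against WT with POVPC under hypoxia gave 11, POVPC in WT cells under hypoxia 6 and its difference between genotypes 0. With no filter, POVPC in WT cells under hypoxia gave 8. POVPC in KO cells under hypoxia gave 1 with library size alone, with DESeq2 and with the replicate block. The difference between genotypes for POVPC under hypoxia gave 2 with the replicate block, 2 with counts halved and 5 with DESeq2. The histone share of KO cells with vehicle under hypoxia was 0.17% with RNAs without a tail left out of the total, against 0.145%. Same-numbered libraries had correlations of -0.644 to 0.183, over 0.1 for every pair in no comparison, so the numbers were not taken as pairs.

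Leaving out 1 library at a time gave 0 to 0 called genes in lesions. KO against WT gave 20 to 29 and 12 to 23 with vehicle (normoxia, hypoxia) and 17 to 28 and 17 to 23 with POVPC. POVPC gave 23 to 31 and 6 to 28 in WT cells and 0 to 0 and 0 to 1 in KO cells. Hypoxia gave 16 to 22 and 21 to 27 in KO cells (vehicle, POVPC) and 20 to 28 and 19 to 25 in WT cells. The differences between genotypes gave 16 to 28 and 1 to 6 for POVPC and 7 to 17 and 5 to 6 for hypoxia. The Rpph1 slope gave 39 to 49. Shares of all genes called are given for the Rpph1 covariate but not for fits with a library left out or for the other alternatives. Those counts therefore cannot be read against all genes. Genes with fewer than about 10 counts per library limit the precision, and close copies may share reads.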
